A study of Mus musculus with 24 samples.

Results

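The cell cycle regulators and DNA licensing genes are a set of 59 genes, chosen by symbol alone from 18194 genes measured on 24 Affymetrix mouse arrays. They are the cyclins of types A, B, D and E, the cyclin-dependent kinases Cdk1 to Cdk8, the inhibitors of the Cdkn1 and Cdkn2 families with Cdkn3, the E2F factors, the pocket proteins Rb1, Rbl1 and Rbl2, the MCM helicase genes with Cdc6, Cdc7, Cdc45 and Pcna, the CDC25 phosphatases, and the mitotic genes Aurka, Aurkb, Bub1, Bub1b, Cdc20, Plk1, Mki67 and Top2a. The rule names symbols and uses no measured value, though it was written with earlier results of these data known. The 59 genes were read by 126 of the 34958 probe sets annotated to 1 gene. A single probe set read 21 of them and several read the other 38.

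The RNA came from primary cortical neurons of E18 mice, kept for 1 week in culture and then treated for 2 h or 12 h. All groups were such cultures. They received DMSO as the control, IBET858 at 1 µM, BDNF at 50 ng/ml, or BDNF and IBET858 at those doses, with 3 arrays per group at each time. IBET858 blocks BET bromodomain proteins, readers of histone acetylation that help RNA polymerase II into elongation. BDNF is a neurotrophin that signals through the receptor TrkB. The labels number the arrays of a group 1 to 3 and name no culture of origin. P-values therefore refer to the spread between these samples alone, which may be technical. Whether dividing cells had been removed from the cultures was not given in the sources used here.

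In a dividing cell, D cyclins with their kinases phosphorylate the pocket proteins, which then release E2F factors. E2F factors switch on the genes for E and A cyclins, for origin licensing by CDC6 and the MCM helicase, and for DNA synthesis, and B cyclins with CDK1 later drive mitosis. Inhibitors of the CIP/KIP and INK4 families hold the kinases in check. Neurons no longer divide, and several of these proteins are known there for other work: CDK5 acts with its own activators, and CDK7 belongs to the transcription factor TFIIH.

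E2F factors bind a known run of letters, which was looked for in the members' promoters. RefSeq windows from 250 bases before to 50 bases after a gene's start were at hand for 46 of the 59 members (GRCm38.p6). They were searched on both strands for the E2F letters TTTCCCGC, TTTCGCGC, TTTGCCGC and TTTGGCGC, counting overlapping matches each. Of the 46 members, 14 held a match (30.4%), against 704 of 27025 genes (2.6%). They were Cdc25a, Cdc6, Cdk1, Cdk2, Cdkn2a, E2f2, E2f3, E2f7, Mcm3, Mcm5, Mcm6, Mcm7, Mcm8 and Rbl1. The letters TTTGAA, the core of the CHR element of mitotic genes, stood in the windows of 17 of the 46 members (37.0%) and in 5466 of 27025 genes (20.2%). The stretches shown are from members with differing array results: E2f7 and Rbl1, which rose with IBET858 at 12 h, E2f3, which fell, and the helicase genes Mcm5 and Mcm6. Capitals mark the E2F letters or their reverse complement, and each stretch is written 5′ to 3′ on the strand of its gene.
E2f7, chr10:110745215-110745274, plus strand: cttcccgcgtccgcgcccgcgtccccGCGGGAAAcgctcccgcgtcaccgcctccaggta
Rbl1, chr2:157204535-157204578, minus strand: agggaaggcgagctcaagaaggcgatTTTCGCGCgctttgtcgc
Mcm6, chr1:128359782-128359841, minus strand: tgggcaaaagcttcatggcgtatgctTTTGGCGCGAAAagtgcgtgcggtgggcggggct
Mcm5, chr8:75109330-75109389, plus strand: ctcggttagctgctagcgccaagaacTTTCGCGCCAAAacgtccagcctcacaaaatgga
E2f3, chr13:29986065-29986100, minus strand: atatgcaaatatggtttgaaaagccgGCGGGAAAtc
In Mcm5 and in Mcm6 a match on each strand overlaps the other. A match is a description of letters and not of binding, and no binding was measured here.

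The values are log2 intensities that the authors had centred on each probe set, so that the median over the 24 arrays is 0. They show how far arrays differ and say nothing of how abundant a transcript was, and a marker's absence cannot be checked on them. In what follows a value is the mean over a gene's probe sets on this centred log2 scale, in the order of replicates 1 to 3. A difference is between 2 group means of 3 arrays each, with its standard error after the ± sign. Tests are two-sided limma tests with Benjamini-Hochberg adjustment over all 18194 genes, and a gene is called, that is, said to have risen or fallen, at an adjusted p under 0.05. In bulk RNA, a change in the number of cells of a type and a change in RNA per cell cannot be told apart.

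Most arrays lay close to their group, with a standard deviation over all genes of 0.072 to 0.117 round the group mean. DMSO 2 h replicate 1 (0.178) and IBET858 12 h replicate 3 (0.157) stood apart. DMSO replicate 1 was high in the proliferation marker Mki67 at both times, at 1.27 at 2 h and 0.83 at 12 h, where the other DMSO arrays lay between -0.052 and 0.066. Its mean over 6 astrocyte markers was 0.628 at 2 h and 0.53 at 12 h, against -0.0434 to 0.0855 on the other 4 DMSO arrays. Of the 59 members, 29 were highest on replicate 1 among the DMSO arrays of 2 h, 24 among those of 12 h and 18 at both. The same was not counted over all genes, so these counts cannot be read as particular to the members. Without replicate 1 of both DMSO groups, 1 call was lost and 2 were gained for IBET858 at 2 h, 0 and 3 at 12 h, 5 and 1 for BDNF at 2 h, and 2 and 4 at 12 h. The calls lost or gained and the larger moves among the members described are given beside their values.

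IBET858 alone moved 15 of the 59 members at 2 h and 35 by 12 h. At 2 h, 10 of 59 members rose (16.9%, against 5.64% of all genes) and 5 fell (8.47%, against 9.27%). The largest rises were those of the S phase cyclin gene Ccne2 at 1.02 ± 0.14 (2.03-fold) and the inhibitor gene Cdkn1c at 0.75 ± 0.21, and the largest fall was that of the helicase gene Mcm4 at -0.73 ± 0.13. At 12 h, 26 members rose (44.1%, against 22.9% of all genes) and 9 fell (15.3%, against 25.8%). The median member stood at 0.153 and the median gene at 0.041. Rises of 1 log2 unit or more were those of E2f5 at 1.18 ± 0.051, Cdkn1c at 1.14 ± 0.21 and E2f7 at 1.05 ± 0.14.

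BDNF alone lowered more members than it raised at each time, while Cdkn1a, E2f6 and Ccnd2 rose furthest. At 2 h, 5 members rose (8.47%, against 9.79% of all genes) and 14 fell (23.7%, against 18.1%). At 12 h, 10 rose (16.9%, against 16.9%) and 14 fell (23.7%, against 24.2%), shares near those of all genes. The inhibitor gene Cdkn1a rose by 1.77 ± 0.069 at 2 h (3.4-fold) and by 2.14 ± 0.069 at 12 h (4.42-fold). E2f6 rose by 1.30 ± 0.068 at 2 h, and the D cyclin gene Ccnd2 by 0.86 ± 0.065 at 12 h. The falls were led by the B cyclin gene Ccnb2 at 2 h (-0.92 ± 0.10) and by the licensing kinase gene Cdc7 at 12 h (-0.84 ± 0.11).

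IBET858 given with BDNF for 12 h, compared with BDNF alone, raised more members than any other of the 6 main comparisons. At 2 h, 14 rose (23.7%, against 12.2% of all genes) and 7 fell (11.9%, against 14.9%). At 12 h, 32 of 59 rose (54.2%, against 21.1%) and 9 fell (15.3%, against 25.6%), with a median of 0.21 over members and -0.00998 over all genes. Cdkn1c rose furthest, by 2.42 ± 0.21 at 12 h (5.35-fold), followed by E2f7 at 1.72 ± 0.14 and Ccne2 at 1.51 ± 0.14. E2f6 fell at 2 h by 1.61 ± 0.068, the largest fall of any member in these comparisons.

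**Figure D1:**
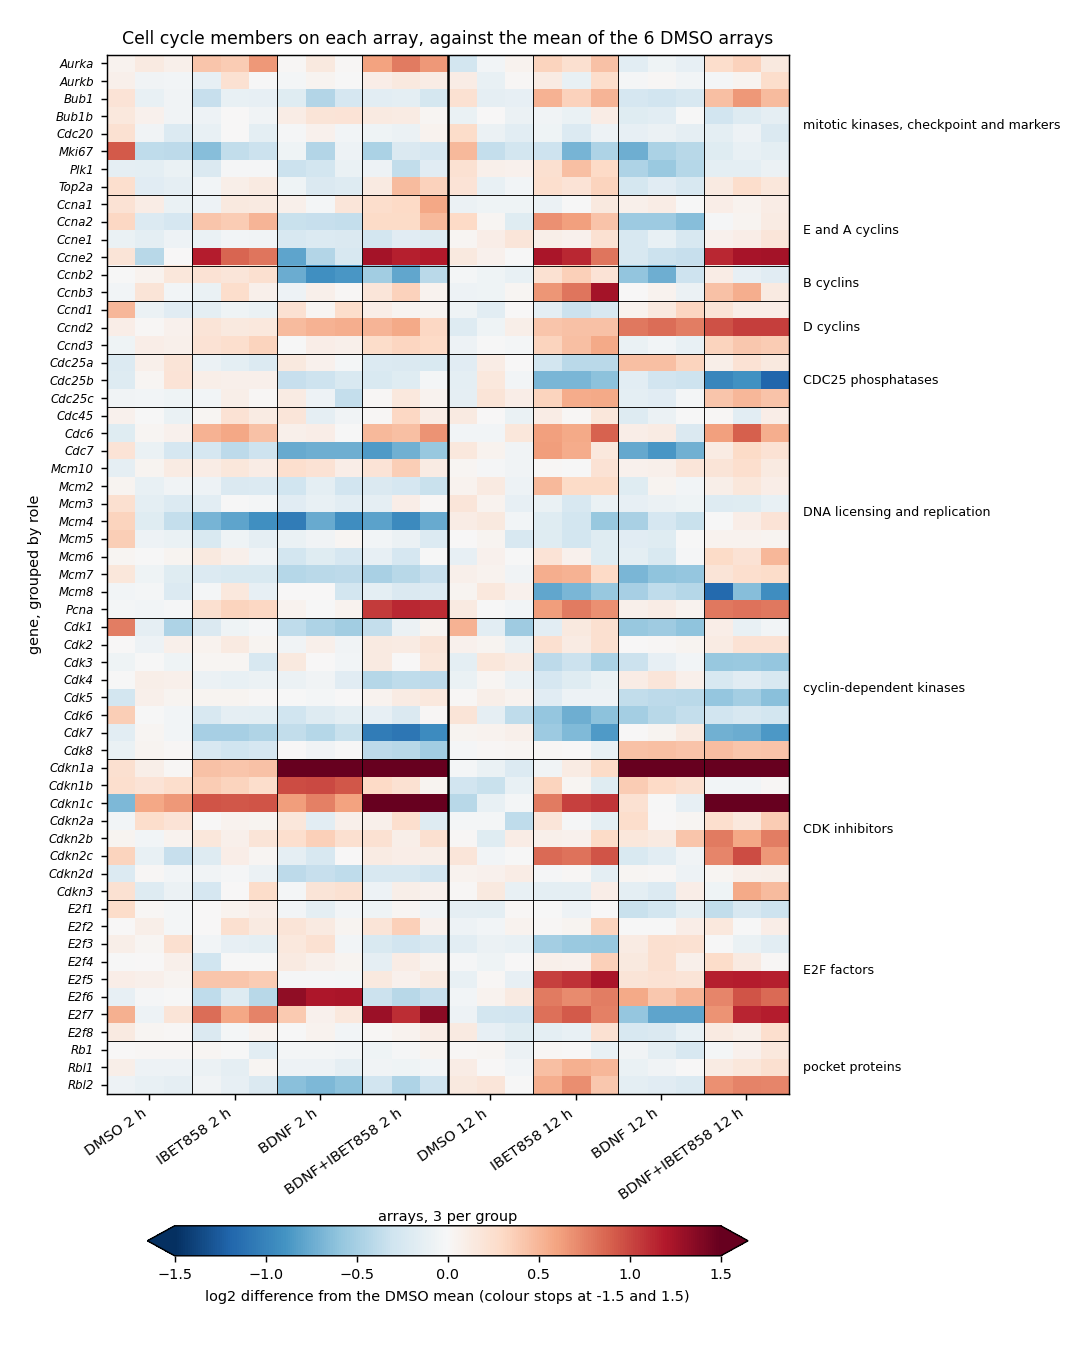
Heat map of the 59 members (rows, by role) on the 24 arrays (columns, by group). Colour is the log2 difference from the mean of the 6 DMSO arrays of both times, red above and blue below, and stops at 1.5 either way. Cdkn1a is red on every BDNF array with or without IBET858, and Ccne2 is red on every array with IBET858.

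The D cyclins bind CDK4 and CDK6 and answer to growth factors. All 3 were measured, and they behaved differently. At 2 h Ccnd2 stood at -0.34, -0.43 and -0.39 in DMSO, at -0.26, -0.30 and -0.29 with IBET858, at 0.033, 0.079 and 0.10 with BDNF and at 0.062, 0.12 and -0.13 with both agents. At 12 h Ccnd2 stood at -0.64, -0.51 and -0.36 in DMSO, at -0.034, -0.012 and -0.0063 with IBET858, at 0.35, 0.39 and 0.32 with BDNF and at 0.51, 0.59 and 0.59 with both agents. Each array with BDNF lay above all DMSO arrays of its time. Ccnd2 rose with BDNF at 2 h (0.46 ± 0.065, adjusted p = 1.13e-05) and at 12 h (0.86 ± 0.065, adjusted p = 8.06e-10). IBET858 alone gave 0.11 ± 0.065 at 2 h (adjusted p = 0.32) and a rise of 0.49 ± 0.065 at 12 h (adjusted p = 1.77e-06). Given on top of BDNF, it gave -0.054 ± 0.065 at 2 h (adjusted p = 0.591) and a small rise of 0.21 ± 0.065 at 12 h (adjusted p = 0.0103), and at 12 h the arrays with both agents were the highest.

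Ccnd1, the best known D cyclin gene of dividing cells, passed no test in the 6 main comparisons. At 2 h Ccnd1 stood at 0.48, -0.10 and -0.19 in DMSO, at -0.16, -0.072 and -0.11 with IBET858, at 0.21, 0.013 and 0.26 with BDNF and at 0.084, 0.025 and 0.031 with both agents, with DMSO replicate 1 standing alone above its group. At 12 h Ccnd1 stood at -0.078, -0.17 and -0.01 in DMSO, at -0.15, -0.33 and -0.25 with IBET858, at 0.039, 0.13 and 0.31 with BDNF and at 0.19, 0.088 and 0.088 with both agents, where the BDNF arrays lay above the DMSO arrays. The difference for IBET858 was -0.18 ± 0.12 at 2 h (adjusted p = 0.364) and -0.16 ± 0.12 at 12 h (adjusted p = 0.271, 95% interval -0.406 to 0.0881). For BDNF it was 0.10 ± 0.12 at 2 h (adjusted p = 0.612) and 0.25 ± 0.12 at 12 h (adjusted p = 0.102). IBET858 on top of BDNF gave -0.11 ± 0.12 (adjusted p = 0.521) and -0.04 ± 0.12 (adjusted p = 0.829). Without DMSO replicate 1 of both times the differences for BDNF were 0.306 at 2 h (adjusted p = 0.00835) and 0.252 at 12 h (adjusted p = 0.0185), both called, and that for IBET858 at 2 h was 0.0329 (adjusted p = 0.866).

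Ccnd3 rose with IBET858 alone by 0.23 ± 0.058 at 2 h and 0.49 ± 0.058 at 12 h, and on top of BDNF by 0.24 ± 0.058 and 0.46 ± 0.058, with arrays that did not overlap. The 2 h call without BDNF was lost without IBET858 2 h replicate 3 (0.20, adjusted p = 0.0509), without DMSO replicate 1 of both times (0.18, adjusted p = 0.0516) and with the median of the probe sets (0.134, adjusted p = 0.167). Its 3 probe sets were uneven: at 12 h they gave 1.11, 0.15 and 0.21 for IBET858 against DMSO. With BDNF the mean of the probe sets was -0.051 ± 0.058 at 12 h (adjusted p = 0.548), while a probe set fell by 0.40 and another rose by 0.17, both called.

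The E cyclins open S phase with CDK2, and the A cyclins carry it through to mitosis. Ccne2 changed most of the 4 in 5 of the 6 main comparisons. At 2 h Ccne2 stood at -0.30, -0.91 and -0.48 in DMSO, at 0.68, 0.38 and 0.30 with IBET858, at -1.29, -0.93 and -0.74 with BDNF and at 0.75, 0.67 and 0.70 with both agents. At 12 h Ccne2 stood at -0.34, -0.42 and -0.50 in DMSO, at 0.73, 0.64 and 0.31 with IBET858, at -0.74, -0.81 and -0.84 with BDNF and at 0.64, 0.74 and 0.75 with both agents. The IBET858 arrays of each time lay above all arrays without the inhibitor, and the arrays with both agents were as high as or higher than most with IBET858 alone. Ccne2 rose with IBET858 at 2 h (adjusted p = 1.33e-05) and at 12 h (0.98 ± 0.14, adjusted p = 4.21e-06), and on top of BDNF by 1.69 ± 0.14 at 2 h (3.23-fold, adjusted p = 3.6e-09) and 1.51 ± 0.14 at 12 h (adjusted p = 7.59e-09).

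BDNF alone lowered Ccne2 by smaller amounts that rest on few arrays. The fall was -0.42 ± 0.14 at 2 h (adjusted p = 0.028), with overlapping arrays, and the call was lost on leaving out any 1 of DMSO 2 h replicates 1 and 3, BDNF 2 h replicate 1 (-0.38 to -0.27, adjusted p from 0.0843 to 0.2). At 12 h it was -0.38 ± 0.14 (adjusted p = 0.0358), lost on leaving out any 1 of DMSO 12 h replicates 1 and 2, BDNF 12 h replicates 1, 2 and 3 (-0.40 to -0.34, adjusted p from 0.053 to 0.111).

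Ccna2, the A cyclin of dividing somatic cells, moved the same way. At 2 h Ccna2 stood at 0.23, -0.28 and -0.34 in DMSO, at 0.34, 0.30 and 0.43 with IBET858, at -0.41, -0.42 and -0.43 with BDNF and at 0.21, 0.21 and 0.40 with both agents. At 12 h Ccna2 stood at 0.22, -0.055 and -0.26 in DMSO, at 0.61, 0.54 and 0.35 with IBET858, at -0.63, -0.62 and -0.72 with BDNF and at -0.094, -0.043 and 0.048 with both agents. All BDNF arrays lay below all others of their time. IBET858 raised Ccna2 by 0.49 ± 0.12 at 2 h (adjusted p = 0.00628) and 0.53 ± 0.12 at 12 h (adjusted p = 0.000794), BDNF lowered it at 12 h (-0.63 ± 0.12, adjusted p = 0.000184), and IBET858 on top of BDNF raised it at 2 h (0.70 ± 0.12, adjusted p = 9.61e-05) and at 12 h (0.63 ± 0.12, adjusted p = 0.00013). At 12 h both agents together left it -0.53 ± 0.12 from IBET858 alone (adjusted p = 0.00112).

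Ccne1 and Ccna1, the germ line A cyclin, moved little. Ccne1 fell with BDNF at 12 h (-0.30 ± 0.055, adjusted p = 0.000131) and rose with IBET858 on top of it (0.31 ± 0.055, adjusted p = 5.63e-05), while IBET858 alone gave 0.025 ± 0.055 (adjusted p = 0.739). Ccna1 rose with IBET858 on top of BDNF at 2 h (0.30 ± 0.089, adjusted p = 0.014), lost without BDNF 2 h replicate 2 (0.25, adjusted p = 0.0784) and without BDNF with IBET858 2 h replicate 3 (0.20, adjusted p = 0.115). In all, 2 of the 4 E and A cyclins rose with IBET858 alone at each time (against 5.64% of all genes at 2 h and 22.9% at 12 h). On top of BDNF, 3 of 4 rose with it at each time (against 12.2% and 21.1%).

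B cyclins bring cells into mitosis with CDK1. The set held Ccnb2 and Ccnb3. At 2 h Ccnb2 stood at 0.087, 0.15 and 0.26 in DMSO, at 0.31, 0.27 and 0.33 with IBET858, at -0.65, -0.83 and -0.78 with BDNF and at -0.43, -0.69 and -0.31 with both agents. At 12 h Ccnb2 stood at 0.056, 0.025 and -0.025 in DMSO, at 0.32, 0.45 and 0.30 with IBET858, at -0.50, -0.64 and -0.22 with BDNF and at 0.20, -0.034 and -0.083 with both agents. Ccnb2 fell with BDNF at 2 h (-0.92 ± 0.10, adjusted p = 2.85e-07) and less at 12 h (-0.47 ± 0.10, adjusted p = 0.000496), a difference between the times of 0.44 ± 0.14 (adjusted p = 0.0225) that was lost on leaving out any 1 of DMSO 2 h replicate 3, BDNF 2 h replicate 2, BDNF 12 h replicate 3 (0.33 to 0.41, adjusted p from 0.0581 to 0.0808). IBET858 alone gave 0.14 at 2 h, not called, and a called rise of 0.34 at 12 h. On top of BDNF it raised Ccnb2 at 12 h (0.48 ± 0.10, adjusted p = 0.000299). The same comparison at 2 h gave 0.28 ± 0.10 (adjusted p = 0.0422), lost on leaving out any 1 of BDNF 2 h replicates 2 and 3, BDNF with IBET858 2 h replicates 1 and 3 (0.19 to 0.26, adjusted p from 0.108 to 0.212).

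Ccnb3, known from meiosis, rose with IBET858 late. At 12 h Ccnb3 stood at -0.15, -0.13 and -0.04 in DMSO, at 0.60, 0.74 and 1.18 with IBET858, at -0.06, -0.019 and -0.15 with BDNF and at 0.37, 0.47 and 0.072 with both agents, so every IBET858 array lay above the arrays without it. The rise was 0.94 ± 0.12 without BDNF (adjusted p = 1.65e-06) and 0.38 ± 0.12 with it (adjusted p = 0.015), the second being lost on leaving out any 1 of BDNF 12 h replicate 3, BDNF with IBET858 12 h replicates 1 and 2 (0.30 to 0.35, adjusted p from 0.0531 to 0.0893). At 2 h the difference without BDNF was 0.043 ± 0.12 (adjusted p = 0.867).

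**Figure D2:**
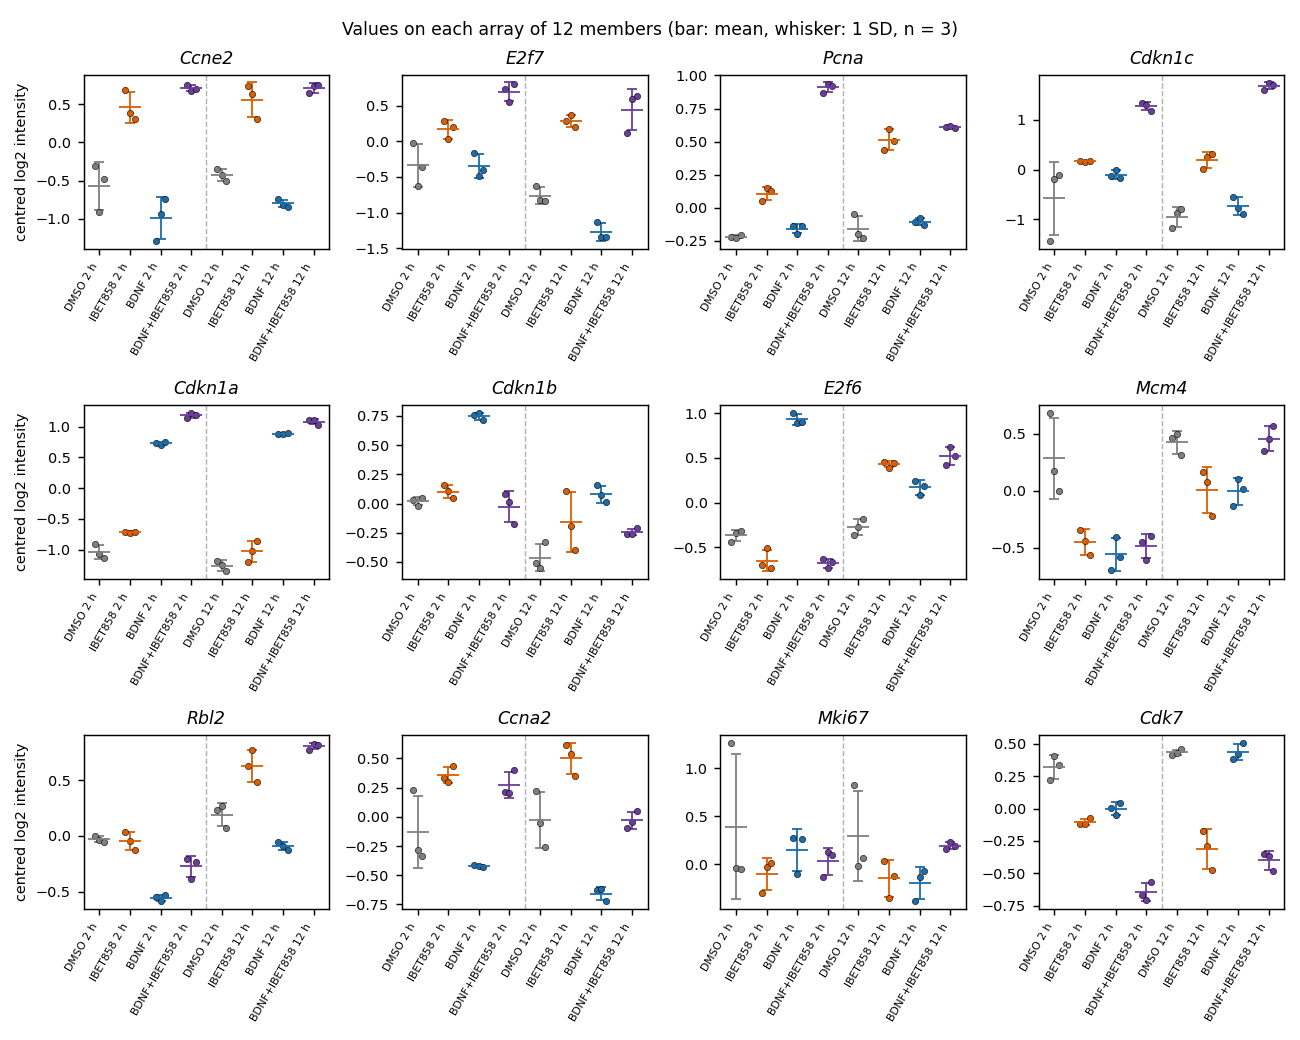
Values of 12 members on each array (centred log2, vertical axes) in the 8 groups at 2 h and 12 h. Dots are arrays, bars are group means and whiskers are 1 SD (n = 3). DMSO replicate 1 stands alone in Mki67, at 1.27 and 0.83, and in Cdkn1c at 2 h, at -1.44.

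Of the kinases, CDK4 and CDK6 act with D cyclins, CDK2 and CDK1 with E, A and B cyclins, and CDK7 and CDK8 belong to the machinery of RNA polymerase II. More kinases fell than rose with IBET858: 0 rose and 2 fell at 2 h, and 1 rose and 4 fell at 12 h, of 8. Over all genes, too, more fell than rose (9.27% against 5.64% at 2 h and 25.8% against 22.9% at 12 h). Cdk7 fell most. At 2 h Cdk7 stood at 0.22, 0.41 and 0.33 in DMSO, at -0.12, -0.12 and -0.077 with IBET858, at 0.0055, -0.052 and 0.043 with BDNF and at -0.67, -0.70 and -0.57 with both agents. At 12 h Cdk7 stood at 0.42, 0.43 and 0.46 in DMSO, at -0.17, -0.29 and -0.48 with IBET858, at 0.39, 0.42 and 0.51 with BDNF and at -0.35, -0.36 and -0.48 with both agents. No IBET858 array overlapped a DMSO array of its time. The fall in Cdk7 was -0.43 ± 0.067 at 2 h (adjusted p = 8.56e-05) and -0.75 ± 0.067 at 12 h (adjusted p = 6.93e-09) without BDNF. With BDNF it was -0.64 ± 0.067 (adjusted p = 1.3e-07) and -0.84 ± 0.067 (adjusted p = 8.91e-10). At 12 h, 4 of its 5 probe sets gave -0.91 to -1.11 in the last comparison and the fifth gave -0.16. BDNF lowered it at 2 h (-0.32 ± 0.067, adjusted p = 0.000852) and left it at 0.0033 ± 0.067 at 12 h (adjusted p = 0.977).

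Cdk6 is a member whose BDNF calls rest on few arrays, DMSO replicate 1 among them. At 2 h Cdk6 stood at 0.60, 0.22 and 0.19 in DMSO, at -0.013, 0.10 and 0.085 with IBET858 and at -0.066, 0.031 and 0.084 with BDNF. At 12 h Cdk6 stood at 0.43, 0.089 and -0.15 in DMSO, at -0.35, -0.51 and -0.39 with IBET858, at -0.28, -0.18 and -0.13 with BDNF and at -0.053, -0.0062 and -0.045 with both agents. IBET858 lowered Cdk6 at 12 h (-0.54 ± 0.11, adjusted p = 0.000412), and its arrays lay below all others of that time. With BDNF present, the same inhibitor gave 0.16 ± 0.11 (adjusted p = 0.263). BDNF alone gave -0.32 ± 0.11 at each time (adjusted p = 0.0373 at 2 h and adjusted p = 0.0264 at 12 h). The 2 h call was lost on leaving out any 1 of DMSO 2 h replicate 1, BDNF 2 h replicates 1, 2 and 3 (-0.35 to -0.19, adjusted p from 0.0511 to 0.252). The 12 h call was lost on leaving out any 1 of DMSO 12 h replicate 1, BDNF 12 h replicates 1 and 2 (-0.33 to -0.17, adjusted p from 0.0528 to 0.235).

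The other kinases moved less. Cdk3 fell with IBET858 at 12 h, with differences of -0.44 ± 0.088 alone (adjusted p = 0.000251) and -0.40 ± 0.088 on top of BDNF (adjusted p = 0.000593). Cdk8 fell at 2 h with IBET858 alone (-0.26 ± 0.05, adjusted p = 0.000897) and on top of BDNF (-0.43 ± 0.05, adjusted p = 5.96e-07), and rose with BDNF at 12 h (0.43 ± 0.05, adjusted p = 4.28e-07). Cdk4 fell with IBET858 on top of BDNF at 2 h (-0.30 ± 0.053, adjusted p = 0.000153) and 12 h (-0.34 ± 0.053, adjusted p = 1.08e-05). Cdk5, the neuronal kinase of the family, fell with BDNF at 12 h (-0.44 ± 0.066, adjusted p = 1.12e-05). Its mean for IBET858 at 12 h, -0.16 ± 0.066 (adjusted p = 0.0495), averages probe sets that disagree: -0.57, -0.39 and 0.48, all 3 called. That call was lost on leaving out any 1 of the 6 arrays (-0.18 to -0.13, adjusted p from 0.0575 to 0.149) and without probe sets marked _s_ or _x_ (adjusted p = 0.0525). Cdk2 rose with IBET858 at 12 h by 0.20 ± 0.059 (adjusted p = 0.00632), lost without DMSO 12 h replicate 3 (0.15, adjusted p = 0.0551). Cdk1, the mitotic kinase, was called in none of the 6 main comparisons, and stood at 0.91 at 2 h and 0.67 at 12 h on DMSO replicate 1 against -0.39 to 0.0085 on the other DMSO arrays. Without that replicate at both times, its difference for IBET858 at 12 h went from 0.134 (adjusted p = 0.659) to a called 0.424 (adjusted p = 0.0117), and for BDNF from -0.508 to -0.155 at 2 h and from -0.512 to -0.222 at 12 h, none called. Calls were also gained there by Cdk4 with IBET858 (-0.176 at 2 h, adjusted p = 0.0407, and -0.152 at 12 h, adjusted p = 0.0313) and by Cdk3 with BDNF at 12 h (-0.305, adjusted p = 0.00926).

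The inhibitors held the largest rise of any role with BDNF at both times and with IBET858 on top of BDNF at 12 h. With IBET858 alone, and on top of BDNF at 2 h, Ccne2 or E2f5 rose further. Cdkn1a codes for p21, an inhibitor of the cyclin-CDK complexes that is induced by many signals. At 2 h Cdkn1a stood at -0.91, -1.06 and -1.13 in DMSO, at -0.71, -0.73 and -0.71 with IBET858, at 0.74, 0.71 and 0.75 with BDNF and at 1.14, 1.23 and 1.19 with both agents. At 12 h Cdkn1a stood at -1.18, -1.24 and -1.35 in DMSO, at -1.196, -1.02 and -0.85 with IBET858, at 0.87, 0.89 and 0.90 with BDNF and at 1.10, 1.10 and 1.03 with both agents. The arrays with BDNF, with or without IBET858, lay far above all the rest. BDNF raised Cdkn1a at 2 h (adjusted p = 3.98e-14) and at 12 h (adjusted p = 1.17e-15), and in the presence of IBET858 by 1.90 ± 0.069 and 2.10 ± 0.069. IBET858 added smaller rises of 0.32 ± 0.069 at 2 h (adjusted p = 0.00224) and 0.24 ± 0.069 at 12 h (adjusted p = 0.00737), the 12 h arrays overlapping and the call being lost without IBET858 12 h replicate 3 (0.15, adjusted p = 0.0661). On top of BDNF it added 0.45 ± 0.069 at 2 h (adjusted p = 2.32e-05) and 0.19 ± 0.069 at 12 h (adjusted p = 0.0256), the latter lost on leaving out any 1 of BDNF 12 h replicates 1, 2 and 3, BDNF with IBET858 12 h replicates 1 and 2 (0.18 to 0.20, adjusted p from 0.051 to 0.0726).

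Cdkn1b codes for p27, which holds cells out of the cycle. At 2 h Cdkn1b stood at 0.03, -0.021 and 0.046 in DMSO, at 0.16, 0.11 and 0.043 with IBET858, at 0.75, 0.77 and 0.71 with BDNF and at 0.08, 0.012 and -0.18 with both agents. At 12 h Cdkn1b stood at -0.51, -0.55 and -0.33 in DMSO, at 0.11, -0.19 and -0.40 with IBET858, at 0.16, 0.073 and 0.012 with BDNF and at -0.26, -0.26 and -0.21 with both agents. The BDNF arrays stood alone at the top of the 2 h set. BDNF raised Cdkn1b at 2 h (0.73 ± 0.092, adjusted p = 2.38e-06) and at 12 h (0.54 ± 0.092, adjusted p = 4.7e-05), and IBET858 on top of BDNF lowered it at 2 h (-0.77 ± 0.092, adjusted p = 7.78e-07) and at 12 h (-0.32 ± 0.092, adjusted p = 0.00541). Without BDNF, IBET858 gave 0.083 ± 0.092 at 2 h (adjusted p = 0.615) and a rise of 0.30 ± 0.092 at 12 h (adjusted p = 0.00905), with overlapping arrays and a call lost without IBET858 12 h replicate 1 (0.17, adjusted p = 0.0885). In the DMSO cultures themselves Cdkn1b was lower at 12 h than at 2 h (-0.48 ± 0.092, adjusted p = 0.00238).

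Cdkn1c codes for p57, an imprinted inhibitor of the same family that is known from differentiating neurons. At 2 h Cdkn1c stood at -1.44, -0.19 and -0.11 in DMSO, at 0.18, 0.16 and 0.18 with IBET858, at -0.13, -0.0068 and -0.16 with BDNF and at 1.34, 1.30 and 1.19 with both agents. At 12 h Cdkn1c stood at -1.18, -0.88 and -0.79 in DMSO, at 0.0068, 0.25 and 0.31 with IBET858, at -0.54, -0.77 and -0.89 with BDNF and at 1.61, 1.74 and 1.70 with both agents. DMSO 2 h replicate 1 was far below the other DMSO arrays, and the arrays with both agents were the highest at each time. IBET858 alone raised Cdkn1c at 2 h (adjusted p = 0.0172), a call lost without DMSO 2 h replicate 1 (0.32, adjusted p = 0.0514) and without IBET858 2 h replicate 3 (0.75, adjusted p = 0.0507), and at 12 h (adjusted p = 0.00011). On top of BDNF it raised it by 1.38 ± 0.21 at 2 h (adjusted p = 2.55e-05) and by 2.42 at 12 h (adjusted p = 3.23e-09). BDNF alone gave 0.48 ± 0.21 at 2 h (adjusted p = 0.103) and 0.22 ± 0.21 at 12 h (adjusted p = 0.472), which were 0.0517 and 0.102 without DMSO replicate 1 of both times (adjusted p = 0.76 and 0.441). BDNF on top of IBET858 raised the gene at 2 h (1.11 ± 0.21, adjusted p = 0.000495) and at 12 h (1.49 ± 0.21, adjusted p = 6.85e-06).

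The INK4 genes block CDK4 and CDK6. Cdkn2c rose late with the inhibitor. At 12 h Cdkn2c stood at 0.12, -0.10 and -0.071 in DMSO, at 0.79, 0.75 and 0.88 with IBET858, at -0.29, -0.21 and -0.12 with BDNF and at 0.68, 0.92 and 0.59 with both agents. All IBET858 arrays lay above 0.5 and all others below 0.2. The rise was 0.82 ± 0.12 without BDNF (adjusted p = 8.32e-06) and 0.94 ± 0.12 with it (adjusted p = 1.34e-06), while the 2 h difference without BDNF was 0.024 ± 0.12 (adjusted p = 0.929). Cdkn2b rose with BDNF by 0.26 ± 0.084 at 2 h and 0.26 ± 0.084 at 12 h. The 2 h call was lost without DMSO 2 h replicate 2 (0.23, adjusted p = 0.0793) and without BDNF 2 h replicate 2 (0.23, adjusted p = 0.0933), and the 12 h call was lost without DMSO 12 h replicate 2 (0.18, adjusted p = 0.13) and without BDNF 12 h replicate 3 (0.17, adjusted p = 0.139). IBET858 on top of BDNF raised Cdkn2b at 12 h (0.47 ± 0.084, adjusted p = 6.51e-05). Cdkn2d fell with BDNF at 2 h (-0.30 ± 0.056, adjusted p = 0.000312), and without DMSO replicate 1 of both times a small fall with IBET858 at 12 h was called as well (-0.138, adjusted p = 0.0415). Cdkn2a, the gene of p16, was called in none of the 6 main comparisons. Cdkn3 rose with IBET858 on top of BDNF at 12 h (0.41 ± 0.15, adjusted p = 0.0302), with overlapping arrays and a call lost on leaving out any 1 of BDNF 12 h replicates 1 and 2, BDNF with IBET858 12 h replicates 2 and 3 (0.28 to 0.37, adjusted p from 0.0875 to 0.173).

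E2F factors fall into activators, here E2f1 to E2f3, and repressors, E2f4 to E2f8. None of the activators rose with IBET858. E2f1 and E2f2 were called in none of the 6 main comparisons, though E2f1 with BDNF at 12 h was called without DMSO replicate 1 of both times (-0.19, adjusted p = 0.0276). E2f3 fell with IBET858 alone at 2 h (-0.23 ± 0.067, adjusted p = 0.0241) and at 12 h (-0.42 ± 0.067, adjusted p = 1.78e-05), and on top of BDNF at 2 h (-0.37 ± 0.067, adjusted p = 0.000196) and at 12 h (-0.28 ± 0.067, adjusted p = 0.00134). The first of these calls was lost on leaving out any 1 of DMSO 2 h replicate 3, IBET858 2 h replicates 2 and 3 (-0.21 to -0.17, adjusted p from 0.0858 to 0.129). BDNF raised E2f3 at 12 h (0.32 ± 0.067, adjusted p = 0.000549).

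The repressors E2f5, E2f6 and E2f7 held the larger changes. E2f7, which represses E2F targets without a pocket protein, moved much like Ccne2. At 2 h E2f7 stood at -0.024, -0.63 and -0.36 in DMSO, at 0.28, 0.024 and 0.20 with IBET858, at -0.17, -0.49 and -0.40 with BDNF and at 0.73, 0.55 and 0.80 with both agents. At 12 h E2f7 stood at -0.63, -0.83 and -0.84 in DMSO, at 0.28, 0.37 and 0.20 with IBET858, at -1.13, -1.34 and -1.35 with BDNF and at 0.12, 0.58 and 0.63 with both agents. At 12 h all arrays with IBET858 lay above 0.1 and all without it below -0.6. IBET858 raised E2f7 at 2 h (0.51 ± 0.14, adjusted p = 0.0131), a call lost without DMSO 2 h replicate 2 (0.36, adjusted p = 0.096) and without IBET858 2 h replicate 1 (0.45, adjusted p = 0.0632), and at 12 h (adjusted p = 1.48e-06). On top of BDNF the rise was 1.05 ± 0.14 at 2 h (adjusted p = 3.38e-06) and 1.72 at 12 h (adjusted p = 8.27e-10, 3.29-fold). BDNF gave -0.011 ± 0.14 at 2 h (adjusted p = 0.967) and a fall of -0.51 ± 0.14 at 12 h (adjusted p = 0.00472).

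E2f6 belongs to a Polycomb complex and represses cell cycle genes independently of pocket proteins. At 2 h E2f6 stood at -0.44, -0.34 and -0.32 in DMSO, at -0.70, -0.51 and -0.73 with IBET858, at 1.01, 0.89 and 0.90 with BDNF and at -0.64, -0.74 and -0.67 with both agents. At 12 h E2f6 stood at -0.36, -0.27 and -0.18 in DMSO, at 0.46, 0.39 and 0.44 with IBET858, at 0.24, 0.079 and 0.19 with BDNF and at 0.42, 0.62 and 0.52 with both agents. At 2 h every array other than those with BDNF alone lay below -0.3. BDNF raised E2f6 (adjusted p = 4.64e-12), and IBET858 with BDNF took that rise away (adjusted p = 9.15e-14), leaving the arrays -0.031 ± 0.068 from IBET858 alone (adjusted p = 0.807). At 12 h each agent alone raised E2f6, IBET858 by 0.70 ± 0.068 (adjusted p = 1.91e-08) and BDNF by 0.44 ± 0.068 (adjusted p = 1.57e-05), and IBET858 on top of BDNF raised it by 0.35 ± 0.068 (adjusted p = 0.000179). The 2 h fall with IBET858 alone (-0.28 ± 0.068, adjusted p = 0.00558) came from 1 of the 2 probe sets, which gave -0.76 where the other gave 0.19.

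E2f5, a repressor that works with pocket proteins, rose with the inhibitor at 12 h. At 2 h E2f5 stood at -0.066, -0.091 and -0.13 in DMSO and at 0.24, 0.25 and 0.21 with IBET858. At 12 h E2f5 stood at -0.28, -0.15 and -0.30 in DMSO, at 0.85, 0.92 and 1.05 with IBET858, at 0.021, 0.045 and 0.023 with BDNF and at 0.99, 1.005 and 0.998 with both agents. The 2 groups with IBET858 lay above 0.8 at 12 h and those without it below 0.1. The rise was 0.33 ± 0.051 at 2 h (adjusted p = 6.49e-05) and 1.18 at 12 h (adjusted p = 1.51e-13) without BDNF, and 0.97 ± 0.051 at 12 h with it (adjusted p = 1.39e-12). Of the 3 probe sets, 1 gave 0.33 at 12 h without BDNF and the others 1.66 and 1.56. E2f8 rose with IBET858 on top of BDNF at 12 h (0.34 ± 0.092, adjusted p = 0.00372), and E2f4 was called in none of the 6 main comparisons.

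Pocket proteins bind E2F factors and silence their targets outside the cycle. Rbl2, the pocket protein p130 of resting cells, changed most. At 2 h Rbl2 stood at 0.0022, -0.033 and -0.05 in DMSO, at 0.031, -0.042 and -0.13 with IBET858, at -0.55, -0.59 and -0.53 with BDNF and at -0.20, -0.38 and -0.23 with both agents. At 12 h Rbl2 stood at 0.23, 0.27 and 0.076 in DMSO, at 0.63, 0.78 and 0.49 with IBET858, at -0.058, -0.088 and -0.12 with BDNF and at 0.77, 0.83 and 0.82 with both agents. At 2 h the BDNF arrays were the lowest, and at 12 h they lay below every DMSO array, while arrays with IBET858 were above them. BDNF lowered Rbl2 at 2 h (-0.53 ± 0.068, adjusted p = 2.93e-06) and at 12 h (-0.28 ± 0.068, adjusted p = 0.00173). IBET858 raised it at 12 h by 0.44 ± 0.068 alone (adjusted p = 1.21e-05) and by 0.90 ± 0.068 on top of BDNF (adjusted p = 3.16e-10). Rbl1, the pocket protein p107, rose with IBET858 at 12 h by 0.47 ± 0.058 alone (adjusted p = 5.84e-07) and 0.23 ± 0.058 on top of BDNF (adjusted p = 0.0021), the latter lost with the median of the probe sets (0.159, adjusted p = 0.062). Rb1 rose by 0.21 ± 0.062 in the latter comparison (adjusted p = 0.00807), lost without BDNF 12 h replicate 3 (0.16, adjusted p = 0.0615) and without BDNF with IBET858 12 h replicate 3 (0.16, adjusted p = 0.0598), and gave -0.015 ± 0.062 without BDNF (adjusted p = 0.863).

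DNA licensing loads the MCM helicase on origins with the help of CDC6, and CDC7 kinase fires it. Of these 12 genes, 2 rose and 1 fell with IBET858 at 2 h (against 5.64% and 9.27% of all genes), and 5 rose and 2 fell at 12 h (22.9% and 25.8%). With BDNF, 0 rose and 5 fell at 2 h (9.79% and 18.1%), and 0 rose and 4 fell at 12 h (16.9% and 24.2%). Given with BDNF the inhibitor raised 7 of 12 at 12 h and lowered 1 (21.1% and 25.6%). Pcna, the sliding clamp of DNA polymerases, showed the tightest arrays. At 2 h Pcna stood at -0.22, -0.23 and -0.21 in DMSO, at 0.049, 0.15 and 0.13 with IBET858, at -0.14, -0.19 and -0.14 with BDNF and at 0.87, 0.94 and 0.92 with both agents. At 12 h Pcna stood at -0.049, -0.20 and -0.22 in DMSO, at 0.44, 0.60 and 0.50 with IBET858, at -0.11, -0.078 and -0.13 with BDNF and at 0.61, 0.62 and 0.61 with both agents. Arrays of different groups with and without IBET858 did not overlap at either time. IBET858 raised Pcna by 0.33 ± 0.052 at 2 h (adjusted p = 8.34e-05) and 0.67 ± 0.052 at 12 h (adjusted p = 6.35e-10) alone. On top of BDNF it raised it by 1.07 ± 0.052 at 2 h (2.1-fold, adjusted p = 7.3e-13) and 0.72 ± 0.052 at 12 h (adjusted p = 1.48e-10). BDNF alone gave 0.062 ± 0.052 (adjusted p = 0.438) and 0.05 ± 0.052 (adjusted p = 0.498).

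Cdc6 also rose with IBET858 at both times. At 2 h Cdc6 stood at -0.48, -0.28 and -0.24 in DMSO, at 0.22, 0.28 and 0.13 with IBET858, at -0.23, -0.20 and -0.31 with BDNF and at 0.19, 0.14 and 0.37 with both agents. At 12 h Cdc6 stood at -0.35, -0.34 and -0.13 in DMSO, at 0.31, 0.26 and 0.58 with IBET858, at -0.21, -0.18 and -0.52 with BDNF and at 0.31, 0.59 and 0.24 with both agents. Every IBET858 array was above 0.1 and every array without it was below -0.1. The rise was 0.55 ± 0.11 at 2 h (adjusted p = 0.000825) and 0.66 ± 0.11 at 12 h (adjusted p = 2.19e-05) alone, and 0.48 ± 0.11 (adjusted p = 0.00151) and 0.68 ± 0.11 (adjusted p = 1.31e-05) on top of BDNF.

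Cdc7 and Mcm7 fell with BDNF and rose late with IBET858. At 2 h Cdc7 stood at 0.43, 0.12 and -0.035 in DMSO, at -0.033, -0.17 and -0.086 with IBET858, at -0.54, -0.51 and -0.51 with BDNF and at -0.63, -0.50 and -0.35 with both agents. At 12 h Cdc7 stood at 0.38, 0.27 and 0.17 in DMSO, at 0.85, 0.78 and 0.38 with IBET858, at -0.55, -0.65 and -0.49 with BDNF and at 0.34, 0.51 and 0.43 with both agents. BDNF lowered Cdc7 at 2 h (-0.69 ± 0.11, adjusted p = 5.31e-05) and at 12 h (adjusted p = 2.51e-06), and IBET858 raised it at 12 h by 0.40 ± 0.11 alone (adjusted p = 0.00489) and 0.99 ± 0.11 on top of BDNF (adjusted p = 1.35e-07). For the helicase subunit gene, at 2 h Mcm7 stood at 0.36, 0.12 and 0.0099 in DMSO and at -0.25, -0.22 and -0.21 with BDNF. At 12 h Mcm7 stood at 0.27, 0.24 and 0.14 in DMSO, at 0.74, 0.70 and 0.49 with IBET858, at -0.49, -0.42 and -0.39 with BDNF and at 0.38, 0.44 and 0.47 with both agents. The 3 BDNF arrays of Mcm7 at 12 h were the only ones below 0. BDNF lowered Mcm7 at 2 h (-0.39 ± 0.074, adjusted p = 0.000331) and at 12 h (-0.65 ± 0.074, adjusted p = 3.08e-07), and at 12 h IBET858 raised it by 0.43 ± 0.074 alone (adjusted p = 4.67e-05) and 0.86 ± 0.074 on top of BDNF (adjusted p = 2.23e-09).

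Mcm4 took a course of its own. At 2 h Mcm4 stood at 0.68, 0.17 and -0.0041 in DMSO, at -0.34, -0.44 and -0.56 with IBET858, at -0.69, -0.40 and -0.58 with BDNF and at -0.45, -0.60 and -0.40 with both agents. At 12 h Mcm4 stood at 0.46, 0.50 and 0.31 in DMSO, at 0.17, 0.08 and -0.22 with IBET858, at -0.13, 0.10 and 0.019 with BDNF and at 0.34, 0.45 and 0.56 with both agents. At 2 h all treated arrays lay below all DMSO arrays, and DMSO replicate 1 was the highest. IBET858 alone lowered Mcm4 at 2 h (adjusted p = 0.000376) and at 12 h (-0.41 ± 0.13, adjusted p = 0.0129), the latter lost without IBET858 12 h replicate 3 (-0.30, adjusted p = 0.0915) and without probe sets marked _s_ or _x_ (-0.274, adjusted p = 0.0649). BDNF alone lowered it at 2 h (-0.84 ± 0.13, adjusted p = 3.91e-05) and at 12 h (-0.43 ± 0.13, adjusted p = 0.0122), the latter lost without BDNF 12 h replicate 1 (-0.36, adjusted p = 0.0617). Together they did not lower it further at 2 h (0.074 ± 0.13 against BDNF, adjusted p = 0.729), and at 12 h IBET858 on top of BDNF raised it (0.46 ± 0.13, adjusted p = 0.00646).

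Mcm8, a helicase of DNA repair and meiosis outside the replicative ring, went down instead. At 12 h Mcm8 stood at 0.25, 0.35 and 0.27 in DMSO, at -0.57, -0.48 and -0.36 with IBET858, at -0.30, -0.18 and -0.23 with BDNF and at -0.96, -0.44 and -0.73 with both agents, so that the DMSO arrays were above all others. It fell with IBET858 (-0.76 ± 0.10, adjusted p = 2.3e-06), with BDNF (-0.53 ± 0.10, adjusted p = 0.000259) and with IBET858 on top of BDNF (-0.47 ± 0.10, adjusted p = 0.000595). At 2 h the difference was 0.089 ± 0.10 for IBET858 and 0.0014 ± 0.10 for BDNF, neither called.

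Mcm2 moved less. At 2 h Mcm2 stood at 0.084, -0.069 and -0.0086 in DMSO, at -0.039, -0.17 and -0.17 with IBET858, at -0.25, -0.10 and -0.25 with BDNF and at -0.18, -0.21 and -0.29 with both agents. At 12 h Mcm2 stood at 0.10, 0.17 and -0.031 in DMSO, at 0.53, 0.32 and 0.33 with IBET858, at -0.14, 0.082 and 0.0015 with BDNF and at 0.13, 0.21 and 0.14 with both agents. At 12 h the arrays with IBET858 alone were the highest. IBET858 alone gave -0.13 ± 0.073 at 2 h (adjusted p = 0.274) and a rise of 0.32 ± 0.073 at 12 h (adjusted p = 0.001). BDNF lowered Mcm2 at 2 h (-0.20 ± 0.073, adjusted p = 0.0408), lost on leaving out any 1 of DMSO 2 h replicates 1 and 3, BDNF 2 h replicates 1 and 3 (-0.21 to -0.16, adjusted p from 0.0687 to 0.16), and gave -0.10 ± 0.073 at 12 h (adjusted p = 0.323). With BDNF present, IBET858 gave -0.025 ± 0.073 at 2 h (adjusted p = 0.836) and a rise of 0.18 ± 0.073 at 12 h (adjusted p = 0.0481), lost on leaving out any 1 of BDNF 12 h replicates 1 and 3, BDNF with IBET858 12 h replicates 1, 2 and 3 (0.12 to 0.20, adjusted p from 0.0645 to 0.248). Mcm6 rose only in that last comparison among the 6 (0.46 ± 0.09, adjusted p = 0.000168) and fell with BDNF at 2 h (-0.26 ± 0.09, adjusted p = 0.0352), lost on leaving out any 1 of DMSO 2 h replicates 1, 2 and 3, BDNF 2 h replicates 1 and 3 (-0.27 to -0.24, adjusted p from 0.0583 to 0.108). Mcm3, Mcm5, Mcm10 and Cdc45 were called in none of the 6. The E2F letters stood both before genes that moved and before genes that did not: at 12 h with IBET858 alone, 5 of the 20 risen members with a window held them, 3 of the 6 fallen ones and 6 of the 20 not called. Added to BDNF it was 6 of 24, 3 of 7 and 5 of 15.

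CDC25 phosphatases activate CDKs, and the 3 of them parted ways at 12 h. At 12 h Cdc25b stood at 0.059, 0.36 and 0.17 in DMSO, at -0.48, -0.48 and -0.40 with IBET858, at 0.052, -0.078 and -0.10 with BDNF and at -0.77, -0.70 and -0.98 with both agents. At 12 h Cdc25c stood at -0.16, 0.18 and 0.082 in DMSO, at 0.31, 0.53 and 0.55 with IBET858, at -0.17, -0.20 and -0.045 with BDNF and at 0.40, 0.48 and 0.41 with both agents. The IBET858 arrays were the lowest of Cdc25b and the highest of Cdc25c. The fall in Cdc25b was -0.65 ± 0.091 with IBET858 alone (adjusted p = 3.66e-06) and -0.77 ± 0.091 on top of BDNF (adjusted p = 2.92e-07). Cdc25c rose by 0.43 ± 0.10 (adjusted p = 0.000774) and 0.56 ± 0.10 (adjusted p = 4.04e-05). Cdc25a, which acts at S phase entry, fell with IBET858, at -0.34 ± 0.082 alone (adjusted p = 0.00142) and -0.26 ± 0.082 on top of BDNF (adjusted p = 0.0123), the latter lost without BDNF with IBET858 12 h replicate 1 (-0.23, adjusted p = 0.0536), and rose with BDNF (0.43 ± 0.082, adjusted p = 0.000188). At 2 h Cdc25a fell with IBET858 on top of BDNF (-0.28 ± 0.082, adjusted p = 0.014), lost without BDNF 2 h replicate 1 (-0.24, adjusted p = 0.0713). Without DMSO replicate 1 of both times, calls were gained by Cdc25a with IBET858 at 2 h (-0.277, adjusted p = 0.00488) and by Cdc25c with BDNF at 12 h (-0.265, adjusted p = 0.0446). BDNF lowered Cdc25b at 2 h (-0.31 ± 0.091), lost without DMSO 2 h replicate 3 (-0.21, adjusted p = 0.102) and without BDNF 2 h replicate 1 (-0.28, adjusted p = 0.0584), and at 12 h (-0.24 ± 0.091), lost on leaving out any 1 of DMSO 12 h replicates 2 and 3, BDNF 12 h replicates 2 and 3 (-0.25 to -0.15, adjusted p from 0.0636 to 0.241).

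Among the mitotic genes, the kinase gene Aurka rose with IBET858 in all 4 comparisons. At 2 h Aurka stood at -0.14, -0.058 and -0.12 in DMSO, at 0.23, 0.19 and 0.46 with IBET858, at -0.18, -0.053 and -0.17 with BDNF and at 0.41, 0.58 and 0.45 with both agents. At 12 h Aurka stood at -0.47, -0.24 and -0.14 in DMSO, at 0.14, 0.046 and 0.24 with IBET858, at -0.35, -0.25 and -0.32 with BDNF and at 0.071, 0.16 and -0.053 with both agents. Every array with IBET858 lay above every array of its time without it. Aurka rose by 0.40 ± 0.084 at 2 h (adjusted p = 0.00171) and 0.43 ± 0.084 at 12 h (adjusted p = 0.000204) alone, and by 0.62 ± 0.084 (adjusted p = 5.35e-06) and 0.37 ± 0.084 (adjusted p = 0.000876) on top of BDNF. One of its probe sets gave 0.56 in the first of these comparisons and the other 0.23.

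Bub1, a spindle checkpoint kinase, rose at 12 h. At 12 h Bub1 stood at 0.35, -0.016 and 0.003 in DMSO, at 0.64, 0.47 and 0.63 with IBET858, at -0.13, -0.16 and -0.11 with BDNF and at 0.57, 0.77 and 0.60 with both agents. The rise was 0.47 ± 0.10 with IBET858 alone (adjusted p = 0.000447) and 0.78 ± 0.10 on top of BDNF (adjusted p = 7.63e-07). It came from 1 of the 2 probe sets, at 1.55 in the latter comparison against 0.01. With BDNF at 2 h Bub1 fell (-0.30 ± 0.10, adjusted p = 0.0264), lost without DMSO 2 h replicate 1 (-0.21, adjusted p = 0.168) and without BDNF 2 h replicate 2 (-0.23, adjusted p = 0.144).

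Plk1, a kinase of mitotic entry, fell with BDNF at 12 h. At 12 h Plk1 stood at 0.35, 0.20 and 0.19 in DMSO, at 0.36, 0.57 and 0.41 with IBET858, at -0.35, -0.45 and -0.31 with BDNF and at -0.035, -0.029 and 0.034 with both agents. All BDNF arrays lay below -0.3 and all DMSO arrays above 0.1. The fall was -0.61 ± 0.079 (adjusted p = 1.73e-06), and IBET858 on top of BDNF raised Plk1 by 0.36 ± 0.079 (adjusted p = 0.000628). Without BDNF the 12 h rise was 0.20 ± 0.079 (adjusted p = 0.0395), lost on leaving out any 1 of DMSO 12 h replicates 2 and 3, IBET858 12 h replicates 2 and 3 (0.14 to 0.22, adjusted p from 0.0532 to 0.174).

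Top2a, a topoisomerase of dividing cells, was likewise lowest with BDNF alone at 12 h in the mean of its probe sets, but that fall was not called. At 2 h Top2a stood at 0.20, -0.23 and -0.18 in DMSO, at -0.10, 0.03 and 0.08 with IBET858, at -0.12, -0.27 and -0.25 with BDNF and at 0.086, 0.42 and 0.29 with both agents. At 12 h Top2a stood at 0.16, -0.16 and -0.10 in DMSO, at 0.19, 0.16 and 0.28 with IBET858, at -0.32, -0.23 and -0.29 with BDNF and at 0.084, 0.20 and 0.11 with both agents. At 2 h DMSO replicate 1 overlapped the treated arrays, and at 12 h all BDNF arrays were below all others. IBET858 gave 0.076 ± 0.10 at 2 h (adjusted p = 0.687) and a rise of 0.25 ± 0.10 at 12 h (adjusted p = 0.0498), lost on leaving out any 1 of DMSO 12 h replicates 2 and 3, IBET858 12 h replicates 1, 2 and 3 (0.18 to 0.27, adjusted p from 0.0554 to 0.202). BDNF gave -0.14 ± 0.10 (adjusted p = 0.361) and -0.24 ± 0.10 (adjusted p = 0.0621). In BDNF cultures, IBET858 raised Top2a by 0.48 ± 0.10 at 2 h (adjusted p = 0.000962) and 0.41 ± 0.10 at 12 h (adjusted p = 0.00172). Here again 1 of 3 probe sets carried the change, at 0.94 and 1.22 in these last comparisons, and the others lay between -0.06 and 0.29. With the median of the probe sets the 12 h call was lost (0.136, adjusted p = 0.197). Without DMSO replicate 1 of both times, the difference for IBET858 at 2 h was 0.211 (adjusted p = 0.098) and that for BDNF -0.00412 at 2 h and -0.147 at 12 h (adjusted p = 0.984 and 0.171).

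Mki67, the usual marker of proliferating cells, passed no test. At 2 h Mki67 stood at 1.27, -0.035 and -0.052 in DMSO, at -0.30, -0.025 and 0.017 with IBET858, at 0.28, -0.10 and 0.27 with BDNF and at -0.13, 0.13 and 0.10 with both agents. At 12 h Mki67 stood at 0.83, -0.017 and 0.066 in DMSO, at 0.034, -0.35 and -0.12 with IBET858, at -0.39, -0.14 and -0.07 with BDNF and at 0.16, 0.23 and 0.19 with both agents. Apart from DMSO replicate 1, no array lay above 0.3 or below -0.4. The difference for IBET858 was -0.49 ± 0.25 at 2 h (adjusted p = 0.218, 95% interval -1.03 to 0.039) and -0.44 ± 0.25 at 12 h (adjusted p = 0.158, -0.973 to 0.0944). For BDNF it was -0.25 ± 0.25 at 2 h (adjusted p = 0.541) and -0.49 ± 0.25 at 12 h (adjusted p = 0.135). These values rest on DMSO replicate 1: without it at both times they were -0.0583 and -0.171 for IBET858 (adjusted p = 0.847 and 0.29) and 0.191 and -0.222 for BDNF (adjusted p = 0.334 and 0.196). When BDNF was present, IBET858 gave -0.12 ± 0.25 (adjusted p = 0.773) and 0.39 ± 0.25 (adjusted p = 0.228, -0.14 to 0.927). Aurkb, Bub1b and Cdc20 were called in none of the 6 comparisons either.

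Whether IBET858 acted on the set in the same way without and with BDNF can be read from comparisons that share no arrays. At 12 h, 34 members were called in both, which is 97.1% of the 35 called without BDNF and 82.9% of the 41 called with it. Of these, 25 rose in both, 7 fell in both, and 2 took opposite directions, Cdkn1b and Mcm4. Over all genes 6489 were called in both, 73.2% and 76.2% of the respective lists, 97.1% of them in 1 direction. At 2 h, 13 members were called in both (86.7% of 15 and 61.9% of 21), all in 1 direction, against 1966 genes over all (72.5% and 39.9%).

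**Figure D3:**
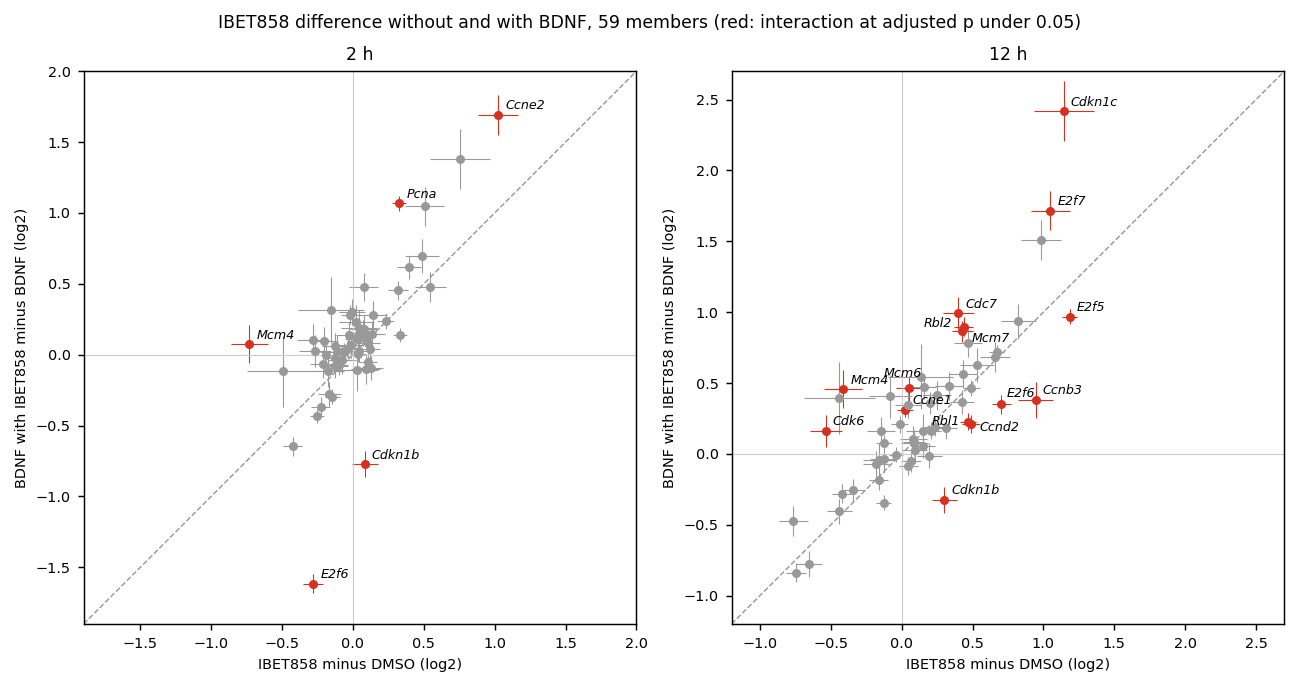
Effect of IBET858 on each member without BDNF (horizontal, log2) and with BDNF (vertical, log2) at 2 h and 12 h. Bars are standard errors of the model, the diagonal marks equal effects, and red points have an adjusted p under 0.05 for the interaction. At 2 h E2f6 lies farthest from the diagonal, at -0.28 without and -1.61 with BDNF, and at 12 h Cdkn1c, at 1.14 and 2.42.

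The interaction tests the difference between those effects itself. At 2 h it was above 0 for 3 members (5.08%, against 3.11% of all genes) and below 0 for 2 (3.39%, against 5.29%). At 12 h it was above 0 for 9 (15.3%, against 8.94%) and below 0 for 6 (10.2%, against 7.24%). Those above 0 at 2 h were Pcna (0.74 ± 0.073, adjusted p = 4.83e-07), Mcm4 (0.80 ± 0.19, adjusted p = 0.00746) and Ccne2 (0.67 ± 0.20, adjusted p = 0.0372). Those below 0 were E2f6 (-1.33 ± 0.10, adjusted p = 5.68e-09) and Cdkn1b (-0.86 ± 0.13, adjusted p = 0.000126). The sign gives the direction of the difference and not the size of either effect. For Mcm4, IBET858 gave -0.73 without BDNF and passed no test with it. E2f6 stood at -0.28 without BDNF and -1.61 with it, and Cdkn1b, not called without BDNF, fell with it (-0.77). The call of Ccne2 was lost on leaving out any 1 of DMSO 2 h replicates 1 and 3, IBET858 2 h replicates 2 and 3, BDNF 2 h replicates 1 and 2, BDNF with IBET858 2 h replicates 1, 2 and 3 (0.52 to 0.70, adjusted p from 0.0542 to 0.124). Cdkn1c at 2 h stood at 0.627 (adjusted p = 0.249) and, without DMSO replicate 1 of both times, at a called 1.06 (adjusted p = 1.24e-05). At 12 h the largest positive values were those of Cdkn1c (1.28 ± 0.30, adjusted p = 0.00526), Mcm4 (0.87 ± 0.19, adjusted p = 0.00262), Cdk6 (0.70 ± 0.16, adjusted p = 0.00412), E2f7 (0.67 ± 0.19, adjusted p = 0.022) and Cdc7 (0.59 ± 0.16, adjusted p = 0.0126). Rbl2 (0.46), Mcm7 (0.43), Mcm6 (0.41) and Ccne1 (0.29) completed them. Below 0 were Cdkn1b (-0.63 ± 0.13, adjusted p = 0.00192), Ccnb3 (-0.56 ± 0.18, adjusted p = 0.0333), E2f6 (-0.36), Ccnd2 (-0.28), Rbl1 (-0.24) and E2f5 (-0.22).

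Several of the 12 h interactions rest on few arrays. That of E2f7 was lost on leaving out any 1 of DMSO 12 h replicate 1, IBET858 12 h replicate 3, BDNF 12 h replicates 2 and 3, BDNF with IBET858 12 h replicates 2 and 3 (0.58 to 0.63, adjusted p from 0.0508 to 0.0675). That of Ccnb3 was lost on leaving out any 1 of DMSO 12 h replicates 1 and 2, IBET858 12 h replicate 3, BDNF 12 h replicates 1 and 2, BDNF with IBET858 12 h replicate 3 (-0.56 to -0.40, adjusted p from 0.0613 to 0.106). Mcm6 was lost on leaving out any 1 of DMSO 12 h replicates 2 and 3, IBET858 12 h replicate 3, BDNF 12 h replicates 1 and 2, BDNF with IBET858 12 h replicate 3 (0.31 to 0.40, adjusted p from 0.0583 to 0.0997). For Rbl1 the call was lost on leaving out any 1 of DMSO 12 h replicates 2 and 3, IBET858 12 h replicates 2 and 3, BDNF 12 h replicates 1, 2 and 3, BDNF with IBET858 12 h replicates 1 and 2 (-0.26 to -0.21, adjusted p from 0.0518 to 0.121), for E2f5 it was lost on leaving out any 1 of DMSO 12 h replicates 1 and 3, IBET858 12 h replicates 2 and 3, BDNF 12 h replicates 1, 2 and 3, BDNF with IBET858 12 h replicates 1, 2 and 3 (-0.23 to -0.16, adjusted p from 0.053 to 0.114) and with the median of the probe sets (-0.0663, adjusted p = 0.683), and for Ccnd2 it was lost on leaving out any 1 of DMSO 12 h replicates 1 and 2, IBET858 12 h replicates 1, 2 and 3, BDNF 12 h replicates 1, 2 and 3, BDNF with IBET858 12 h replicates 1, 2 and 3 (-0.29 to -0.21, adjusted p from 0.0525 to 0.132). On leaving out 1 array at a time, 9 to 16 members were called, 9 of them without BDNF 12 h replicate 2.

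BDNF added to IBET858, compared with IBET858 alone, asks what BDNF does once BET proteins are blocked. At 2 h, 6 members rose (10.2%, against 6.44% of all genes) and 8 fell (13.6%, against 14.7%). At 12 h, 14 rose (23.7%, against 16.1%) and 11 fell (18.6%, against 23.2%). Cdkn1a and Cdkn1c led the rises at both times. Pcna rose at 2 h by 0.80 ± 0.052 (adjusted p = 1.69e-10), and E2f7 by 0.53 ± 0.14 (adjusted p = 0.0074). Ccnd2 rose by 0.30 ± 0.065 at 2 h (adjusted p = 0.00172) and 0.58 ± 0.065 at 12 h (adjusted p = 2.88e-07), and Cdkn2b (0.57 ± 0.084, adjusted p = 1.22e-05) and Cdc25a (0.51 ± 0.082, adjusted p = 2.93e-05) rose at 12 h. Ccnb2 (-0.78 ± 0.10, adjusted p = 4.08e-06) and Cdk7 (-0.54 ± 0.067, adjusted p = 3.2e-06) fell furthest at 2 h, and Ccnb3 (-0.53 ± 0.12, adjusted p = 0.00158) and Ccna2 at 12 h. Set beside BDNF against DMSO, which shares no arrays with it, 8 members were called in both at 2 h (42.1% of 19 and 57.1% of 14, against 48.3% and 63.6% over all genes), all in 1 direction. At 12 h, 15 were called in both (62.5% of 24 and 60% of 25, against 65% and 67.8%), 12 of them in 1 direction (80%, against 95.6%).

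The IBET858 effect was more often higher, in the signed sense, at 12 h than at 2 h. The difference of the 12 h and the 2 h effect was above 0 for 15 members (25.4%, against 15.8% of all genes) and below 0 for 5 (8.47%, against 17.4%). The largest were those of E2f6 (0.99 ± 0.10, adjusted p = 9.99e-08), Ccnb3 (0.90 ± 0.18, adjusted p = 0.000373), E2f5 (0.85 ± 0.073, adjusted p = 1.5e-08) and Cdkn2c (0.80 ± 0.17, adjusted p = 0.00103) upward, and Mcm8 (-0.85 ± 0.15, adjusted p = 9.4e-05) and Cdc25b (-0.72 ± 0.13, adjusted p = 0.000156) downward. Bub1 (0.68 ± 0.14), Cdc7 (0.67 ± 0.16), Mcm7 (0.62 ± 0.10) and Rbl1 (0.51 ± 0.081) lay above 0.5 as well. E2f7 gave 0.54 ± 0.19 (adjusted p = 0.0369), lost on leaving out any 1 of DMSO 2 h replicates 1 and 3, IBET858 2 h replicates 2 and 3, DMSO 12 h replicates 2 and 3, IBET858 12 h replicates 1 and 2 (0.38 to 0.55, adjusted p from 0.0529 to 0.118). Cdkn1c, at 0.390 here (adjusted p = 0.373), stood at 0.703 without DMSO replicate 1 of both times (adjusted p = 3.14e-04). Ccne2 and Cdc6, which rose at both times, had differences of -0.04 ± 0.20 (adjusted p = 0.913) and 0.11 ± 0.15 (adjusted p = 0.643).

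For BDNF, the 12 h effect was above the 2 h effect for 9 members (15.3%, against 12.9% of all genes) and below it for 4 (6.78%, against 11.9%). E2f6 lost most of its early rise (-0.86 ± 0.10, adjusted p = 1.11e-06), and the fall of Mcm8 (-0.53 ± 0.15, adjusted p = 0.00999), Plk1 (-0.50 ± 0.11, adjusted p = 0.00186) and Cdk5 (-0.49 ± 0.093, adjusted p = 0.000474) came by 12 h. Cdkn1a (0.38 ± 0.10, adjusted p = 0.0063), Ccnd2 (0.40 ± 0.092, adjusted p = 0.00236) and Cdk8 (0.44 ± 0.071, adjusted p = 8.8e-05) gained. Between the DMSO cultures of 12 h and 2 h, 1 member was higher at 12 h (1.69%, against 3.91% of all genes), Ccne1 (0.21 ± 0.055, adjusted p = 0.0232). The 2 that were lower (3.39%, against 3.63%) were Cdkn1b and E2f3 (-0.24 ± 0.067, adjusted p = 0.0298). Same-numbered DMSO arrays of the times deviated together (correlations of 0.509, 0.239 and 0.316), and with the number as a block among them 7 members were called between the DMSO times, 2 higher and 5 lower. The Ccne1 call was lost on leaving out any 1 of DMSO 2 h replicate 2, DMSO 12 h replicates 2 and 3 (0.17 to 0.21, adjusted p from 0.0676 to 0.111), and the E2f3 call was lost on leaving out any 1 of DMSO 2 h replicate 3, DMSO 12 h replicates 1, 2 and 3 (-0.26 to -0.18, adjusted p from 0.0608 to 0.13).

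Over the 6 main comparisons, 14 of the 59 members were called in none and 3 in all 6. The matching totals were not counted over all genes, so these cannot be read as particular to the set. Single comparisons called from 14.9% of all genes (IBET858 at 2 h) to 48.7% (IBET858 at 12 h). Among the 14 were Mki67, Cdk1, Aurkb, Bub1b and Cdc20. Of the other genes known from mitosis and S phase, Aurka was called in 4, Bub1, Plk1 and Top2a in 3 each, and Ccna2 and Ccnb2 in 5 each. The 3 were Ccne2, Cdkn1a and E2f6. Leaving out DMSO replicate 1 of both times, 16 members were called with IBET858 at 2 h and 38 at 12 h, and 15 and 26 with BDNF. The shares of all genes without that replicate are not given here, so these counts show only how far the member calls depend on it.

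Markers of other cell types moved as well, and are to be read beside the shares of all genes. At 12 h these were 22.9% risen and 25.8% fallen with IBET858, 16.9% and 24.2% with BDNF, and 21.1% and 25.6% with IBET858 on top of BDNF. With IBET858 at 12 h, 3 of 6 astrocyte markers fell and 0 rose, with array means of -0.422 to -0.283 against -0.0434 to 0.53 in DMSO. In the same comparison 4 of 7 microglia markers fell and 0 rose (-0.425 to -0.28 against -0.0938 to -0.0602). Of 7 markers of neural progenitors, 1 rose and 2 fell (-0.193 to -0.164 against -0.143 to 0.00806), and of 5 markers of the oligodendrocyte lineage 1 rose. With BDNF at 12 h, 4 of 7 progenitor markers rose and 1 fell (0.233 to 0.351), and 2 of 6 astrocyte markers fell. Vim alone rose by 2.34 there, where the median difference of the 7 progenitor markers was 0.232. With IBET858 on top of BDNF at 12 h, 1 progenitor marker rose and 1 fell, and 2 astrocyte and 3 microglia markers fell. Because levels are lacking, none of these lists can be said to be at 0. Their part in the member results was not tested.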

How the data were processed

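The 24 RNA samples were hybridised to Affymetrix arrays. Per the submitters' processing notes, the authors used RMA, and the deposited values are log2 intensities (the base is RMA's, since the table does not state it). Of the 45101 probe sets that the authors deposited, 45101 had a median of 0 within 1e-06, so levels were lacking, and normalisation to 1 distribution hides a change in total mRNA. The platform annotation listed 35890 probe sets, 34958 with 1 symbol and 932 with several, and 34754 of the 34958 matched RefSeq by Entrez ID, as did all 59 members. The 9211 unlisted probe sets and the 932 with several symbols were left out. The deposited probe sets included 64 controls, with no separate step to remove them. A gene's value was the mean of its probe sets.

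R 4.3.3 with limma 3.58.1 fitted 1 mean per group (8 groups, 16 residual degrees of freedom) and 13 contrasts, with Benjamini-Hochberg adjustment over 18194 genes and calls at 0.05. The code was checked on simulated data. Arrays are given for called members at 0.5 or more in a main comparison and for Ccnd1, Ccnd2, Cdkn1a, Ccne2, Pcna, Mcm2, Mki67 and Top2a throughout, and members whose probe sets disagree are named. From further lists up to 3 called genes with the largest change are named. The rule for the members, which uses symbols alone, and the lists were written with earlier results of these data known. Same-numbered arrays of 1 time did not deviate together (2 of 36 correlations above 0.1, from -0.153 to 0.154), so the numbers were not used as pairs there. Across times those of DMSO did (0.509, 0.239 and 0.316), and the number was tried as a block among the DMSO arrays. Alternatives were a replicate block, array weights, array-median scaling, medians over probe sets, probe sets free of _s_ and _x_ marks, arrays of 1 time, a threshold of 0.01, and arrays left out. That block and leaving out DMSO replicate 1 of both times were chosen after seeing the data. Promoter windows came from RefSeq (GRCm38.p6). Figures used matplotlib 3.10.9 in Python 3.11.15.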

Additional observations from a re-analysis of the deposited data

Results flagged for a closer look

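IBET858 had a different effect with BDNF than without it on 5 members at 2 h, by the interaction term in limma (8.47%, against 8.4% of all genes). By the same term it did so on 15 members at 12 h (25.4%, against 16.2%). The 2 h share is near that of all genes. At 2 h the difference between the effects was 0.67 for Ccne2, -0.858 for Cdkn1b, -1.33 for E2f6, 0.804 for Mcm4 and 0.74 for Pcna. At 12 h, those of 0.5 or more either way were Ccnb3 at -0.563, Cdc7 at 0.594, Cdk6 at 0.7, Cdkn1b at -0.626, Cdkn1c at 1.28, E2f7 at 0.669 and Mcm4 at 0.87. E2f6 and Cdkn1b, both raised by BDNF at 2 h, were the ones below 0 at that time. The BDNF 2 h arrays enter both that rise and the interaction, so they are not independent results.

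The IBET858 effect differed between 12 h and 2 h for 20 members (33.9%, against 33.1% of all genes), a share near that of all genes. The larger differences were those of Bub1 (0.675), Ccnb3 (0.902), Cdc25b (-0.719), Cdc7 (0.669), Cdkn2c (0.801), E2f5 (0.853), E2f6 (0.986), E2f7 (0.54), Mcm7 (0.621), Mcm8 (-0.854) and Rbl1 (0.513). The BDNF effect differed between the times for 13 members (22%, against 24.8% of all genes). The larger differences were -0.857 for E2f6, -0.529 for Mcm8 and -0.502 for Plk1.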

How the results depend on the processing

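Of 250 called values, none changed direction under any alternative, and 233 to 245 kept their call under the replicate block (245), array weights (241), array-median scaling (234, which shifts a comparison by up to 0.0403), medians over probe sets (239), probe sets free of _s_ and _x_ marks (236) and leaving out both arrays that stand apart (233). Without DMSO replicate 1 of both times 134 of 149 did, with 12 h arrays alone 127 of 140, with 2 h arrays alone 67 of 74, and at the 0.01 threshold 180 of 250. Over all fits without 1 array 1571 of 1818 kept it. The replicate block gave 15, 35, 19, 24, 20 and 41 members called in the 6 main comparisons and arrays of 1 time share only a number.

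Counts moved by over 1.5 times in these cases, for which the cause was not tested beyond the stricter threshold. At the 0.01 threshold 11 members were called for BDNF at 2 h, 9 and 15 for BDNF on top of IBET858 at 2 h and 12 h, 6 for the 12 h interaction and 1 between DMSO times. Array weights gave 8 for the 2 h interaction, 21 for BDNF between times and 12 for DMSO between times. Leaving out both arrays that stand apart gave 20 and 6 for these last. The replicate block among the DMSO arrays gave 7 for DMSO between times, and kept 36 of 36 calls between times.

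Without 1 array, members called ranged from 12 to 16 and 31 to 35 for IBET858 (2 h and 12 h), 13 to 19 and 20 to 25 for BDNF, 18 to 21 and 36 to 37 for IBET858 on top of BDNF, 11 to 15 and 19 to 23 for BDNF on top of IBET858, 4 to 7 and 9 (without BDNF replicate 2) to 16 for the interactions, 18 to 21 for IBET858 between times, 11 to 18 for BDNF between times and 2 to 4 for DMSO between times.

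Some values of uncalled genes changed sign. With all arrays they lay between -0.245 (Mki67 with BDNF at 2 h) and 0.0966 (Ccnd1 with BDNF at 2 h). The arrays or settings that turned them follow, and why these differ was not tested. At 2 h, leaving out 1 array, Ccnd1 with IBET858 ranged from -0.302 without DMSO replicate 3 to 0.0329 without DMSO replicate 1 (0.0329 also without both arrays that stand apart or DMSO replicate 1 of both times), and with BDNF from -0.0286 to 0.306 for the same arrays. Mki67 with BDNF ranged from -0.468 to 0.191 for these arrays, with 0.191 in the same further settings and 0.173 with array weights. Top2a with IBET858 ranged from -0.00237 without DMSO replicate 2 to 0.211 without DMSO replicate 1 and was -0.0315 by medians over probe sets, and with BDNF it was 0.00331 with array weights. For IBET858 on top of BDNF at 2 h, Ccnd2 ranged from -0.105 without replicate 2 to 0.0206 without replicate 3 of both agents, and Mcm2 from -0.0511 to 0.0243 without BDNF replicates 1 and 2 in turn, with 0.00644 without replicate 3 of both agents. At 12 h Ccnd1 ranged from -0.1 to 0.0342 without BDNF replicates 1 and 3 in turn. The number of arrays limits the precision, and signal over background was not analysed here.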

Other observations

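Lists of further cell cycle genes gave a wider view than the 59 members. The counts in this section are to be read beside the shares of all genes. With IBET858, 5.64% rose and 9.27% fell at 2 h, and 22.9% and 25.8% at 12 h. With BDNF these were 9.79% and 18.1% at 2 h, and 16.9% and 24.2% at 12 h. With IBET858 on top of BDNF they were 12.2% and 14.9% at 2 h, and 21.1% and 25.6% at 12 h. Of 33 measured genes of DNA replication, 1 rose and 2 fell with IBET858 at 2 h, and 18 rose and 10 fell at 12 h. The licensing factor gene Cdt1 rose by 0.96 ± 0.074 and the single-strand binding gene Rpa1 by 0.73 ± 0.088, while the primase gene Prim1 fell by 0.94 ± 0.14. BDNF raised 2 and lowered 15 at 2 h, and raised 5 and lowered 17 at 12 h, when Prim1 (-1.22 ± 0.14), the ligase gene Lig1 (-1.08 ± 0.069) and Rpa1 (-0.80 ± 0.088) fell most. With BDNF present, IBET858 raised 8 and lowered 3 at 2 h, with the origin recognition gene Orc1 at 0.74 ± 0.06, and raised 20 and lowered 5 at 12 h. There the licensing inhibitor gene Gmnn rose by 1.33 ± 0.087, Rpa1 by 1.33 ± 0.088 and the polymerase gene Pole by 1.30 ± 0.19.

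Of 32 genes of mitosis, 4 rose and 0 fell with IBET858 at 2 h, led by Ccnf (0.63 ± 0.081), and 13 rose and 5 fell at 12 h. The spindle midzone gene Prc1 rose by 1.60 ± 0.12, Ckap2 by 1.01 ± 0.15 and the checkpoint kinase gene Chek2 by 0.98 ± 0.10. BDNF lowered 8 and raised 2 at 2 h, with the kinetochore motor gene Cenpe at -0.63 ± 0.10, and lowered 15 and raised 2 at 12 h. Cdca8 (-0.90 ± 0.076) and Birc5 (-0.87 ± 0.13), both of the chromosomal passenger complex, and Fzr1 (-0.59 ± 0.056) fell most. With IBET858 on top of BDNF, 10 rose and 0 fell at 2 h, Cks2 by 1.23 ± 0.064 and Nusap1 by 0.87 ± 0.10. At 12 h, 19 rose and 4 fell, with Prc1 at 2.23 ± 0.12, Ckap2 at 1.63 ± 0.15 and Cks2 at 1.44 ± 0.064.

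Of 12 further factors of cell cycle transcription, 2 rose and 3 fell with IBET858 at 2 h, and 5 rose and 3 fell at 12 h. The E2F partner gene Tfdp2 rose at 12 h by 1.14 ± 0.079 alone and by 1.501 ± 0.079 on top of BDNF, while the partner gene Tfdp1 fell at 2 h by 0.84 ± 0.049 on top of BDNF. BDNF raised 3 and lowered 1 at 2 h, and raised 5 and lowered 1 at 12 h. On top of it IBET858 raised 3 and lowered 4 at 2 h, and raised 4 and lowered 4 at 12 h.

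Of 13 targets of p53 other than Cdkn1a, 3 rose and 2 fell with IBET858 at 2 h, and 3 rose and 6 fell at 12 h. Gadd45a (1.12 ± 0.11), Btg2 (1.11 ± 0.14) and Pmaip1 (0.84 ± 0.10) rose at 2 h. BDNF raised 5 and lowered 2 at 2 h, with Btg2 at 4.25 ± 0.14 and Sesn1 at -1.004 ± 0.087, and raised 5 and lowered 6 at 12 h. On top of BDNF, IBET858 raised 3 and lowered 4 at 2 h, with Pmaip1 at 1.87 ± 0.10, and raised 5 and lowered 4 at 12 h. The list thus did not move in 1 direction.

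Of 9 neuronal markers, 2 rose and 5 fell with IBET858 at 12 h and 3 rose and 5 fell with BDNF. The neurofilament gene Nefl rose by 1.54 ± 0.11 and 2.22 ± 0.11, and Rbfox3, the gene of NeuN, fell, at -0.65 ± 0.051 and -1.01 ± 0.051. Among 7 progenitor markers the median difference with BDNF at 12 h was 0.232. The intermediate filament gene Vim rose by 2.34 ± 0.075 and Eomes by 0.56 ± 0.13, while Hes5 fell (-0.39 ± 0.10). The astrocyte markers Aqp4 (-1.21 ± 0.18) and Gja1 (-1.02 ± 0.17) and the leukocyte gene Ptprc (-0.70 ± 0.11) fell with IBET858 at 12 h. Of 9 vascular and fibroblast markers, 2 rose and 1 fell with IBET858 at 12 h, and 4 rose on top of BDNF at 2 h, where the endothelial gene Pecam1 rose by 3.64 ± 0.12.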
